A study of Mus musculus with 2 samples.

Results

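The genes of nuclear-encoded oxidative phosphorylation were followed here across the cell classes of 2 single-cell RNA libraries from mouse colon tumours. A gene was a member if its symbol in the deposited gene list began with Nduf followed by a, b, c, s or v and a number, with Uqcr, with Cox4 to Cox8 or with Atp5, or was Sdha, Sdhb, Sdhc or Sdhd, and if it had at least 10 UMIs over both libraries. A UMI is a molecular tag that counts 1 captured RNA molecule. Of 104 symbols that matched, 95 were members, out of 55357 genes in all, of which 22667 had at least 10 UMIs. By complex, 40 members belonged to complex I, 4 to complex II, 10 to complex III, 21 to complex IV and 20 to complex V. Ndufa4 and Ndufa4l2 were placed in complex IV, and 11 members were named or annotated as pseudogenes. Members were chosen by symbol and by their UMI total over both libraries, a measured value, and the total is given as a description only: Uqcrh-ps2 and Cox8b (16 UMIs each) and Atp5k-ps2 (12) lay just inside, Ndufa11b (9) lay just outside, and Cox8c and Cox7b2 had 1 and 0 UMIs.

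The library labelled KO came from colon tumour tissue of mice carrying ECM1 Flox/Flox together with Villin-Cre, a transgene that drives Cre recombinase in intestinal epithelium. The library labelled WT came from colon tumour tissue of ECM1 Flox/Flox mice without that transgene, so both groups carry the floxed allele. There was 1 library per genotype, and the labels give neither the number, age or sex of the animals nor the way the tumours arose. No test of genotype was therefore possible. Every interval below is a 95% interval for counting error only, and every difference between the libraries is a difference between these 2 libraries with no replicate check.

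Oxidative phosphorylation makes ATP in mitochondria. Complexes I and II pass electrons from NADH and succinate to ubiquinone, complex III passes them on to cytochrome c, complex IV hands them to oxygen, and complex V (ATP synthase) uses the proton gradient that results. A small set of core subunits is encoded by mitochondrial DNA, all complex II subunits and the remaining subunits of the other complexes by nuclear genes. In the colon, absorptive epithelial cells depend on this pathway to oxidise butyrate, whereas mature neutrophils hold few mitochondria and rely on glycolysis.

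The library labelled KO had 4896 barcodes with 75024663 UMIs and the library labelled WT 9512 barcodes with 59189995 UMIs, and 17 barcodes occurred in both. After filters 4233 and 8262 cells remained, in 26 clusters, of which 22 could be named from marker genes. Ecm1, the gene that Villin-Cre is meant to delete in epithelium, was at 42.0 CPM (40.4 to 43.8, in UMIs per 1000000 UMIs of the class) in epithelial-like cells of the KO-labelled library and at 35.1 CPM (33.0 to 37.4) in those of the library labelled WT, so it was not lower under the KO label. The deleted exons are not given, so these counts do not check the deletion. UMIs of the 4 ribosomal RNA linked genes (Rn18s-rs5, Lars2, Mir6236 and AY036118) made up 1.25% to 6.36% of the 7 compared classes in the library labelled KO and 0.196% to 0.566% in the library labelled WT, and their part in the differences below was not tested.

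Promoter windows from RefSeq (build GRCm38.p6, 250 bases before to 50 after the annotated start) were used for 68 of the 95 members. The 11 members named or annotated as pseudogenes were left out of the search, whereas the promoters of all genes were not filtered in this way. Letters matched on either strand were an NRF1 motif, CCGGAAG for ETS factors of the GABP type, AANATGGC for YY1, TCAAGGTCA for the oestrogen-related receptors, ACGTG for the hypoxia response core and TATAAA for the TATA box. The NRF1 motif holds an open base and is not an exact palindrome. Its matches are among the capitals of the Sdhd and Ndufa8 windows below. NRF1, GABP and YY1 are transcription factors known for nuclear genes of mitochondrial function. The NRF1 letters were present in 16 member windows (23.5%), against 4.78% of all 27025 promoters in the table. The ETS letters were present in 16 windows (23.5%), against 9.12% of all promoters, and the YY1 letters in 15 (22.1%), against 6.23%. At least 1 of these 3 motifs lay in 41 member windows (60.3%), against 17.95% of all promoters. The hypoxia response core was found in 26.5% of member windows and 19.7% of all promoters, and the TATA box in 10.3% and 14.2%.

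The windows printed here belong to Sdhd, which holds 3 of the 6 motifs, to 3 members that were high in the library labelled KO (Ndufa8, Atp5pb and Cox5a) and to 2 that were low in it (Ndufa3 and Atp5md). Each runs 5′ to 3′ along the gene's strand, and capitals mark the matched letters, written as their reverse complement where the match is on the other strand. The hypoxia response core has 2 matches within the single capital run at the start of the Atp5pb window, once per strand.
Sdhd, chr9:50603800-50604099, minus strand, NRF1, ETS and oestrogen-related receptor letters: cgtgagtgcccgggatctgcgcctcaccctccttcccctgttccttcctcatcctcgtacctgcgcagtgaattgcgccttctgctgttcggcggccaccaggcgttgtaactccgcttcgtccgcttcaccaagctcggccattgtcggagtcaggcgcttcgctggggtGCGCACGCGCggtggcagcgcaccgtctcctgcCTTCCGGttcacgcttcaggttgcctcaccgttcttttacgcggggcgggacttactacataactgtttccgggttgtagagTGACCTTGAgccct
Ndufa8, chr2:36049289-36049588, minus strand, NRF1 letters: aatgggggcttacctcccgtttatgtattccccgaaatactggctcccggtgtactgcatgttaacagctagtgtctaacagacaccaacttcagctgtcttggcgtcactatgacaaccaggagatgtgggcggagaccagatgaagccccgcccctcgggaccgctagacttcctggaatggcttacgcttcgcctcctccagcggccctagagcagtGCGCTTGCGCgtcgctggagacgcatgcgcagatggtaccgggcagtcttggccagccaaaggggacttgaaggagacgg
Atp5pb, chr3:105959214-105959513, minus strand, hypoxia response core and YY1 letters: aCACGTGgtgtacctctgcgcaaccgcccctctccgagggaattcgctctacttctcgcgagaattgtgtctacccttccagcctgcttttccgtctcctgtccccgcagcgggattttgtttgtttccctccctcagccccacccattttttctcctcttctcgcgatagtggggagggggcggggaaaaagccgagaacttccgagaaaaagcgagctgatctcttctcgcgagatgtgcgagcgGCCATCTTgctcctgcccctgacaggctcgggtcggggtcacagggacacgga
Cox5a, chr9:57520982-57521281, plus strand, hypoxia response core: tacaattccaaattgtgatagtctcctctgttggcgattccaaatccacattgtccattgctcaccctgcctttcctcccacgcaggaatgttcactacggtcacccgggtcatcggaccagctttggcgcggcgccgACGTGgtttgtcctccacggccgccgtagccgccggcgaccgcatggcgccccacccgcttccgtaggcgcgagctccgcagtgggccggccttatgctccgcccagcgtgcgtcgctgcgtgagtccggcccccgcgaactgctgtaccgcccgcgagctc
Ndufa3, chr7:3617123-3617422, plus strand, TATA box, hypoxia response core and YY1 letters: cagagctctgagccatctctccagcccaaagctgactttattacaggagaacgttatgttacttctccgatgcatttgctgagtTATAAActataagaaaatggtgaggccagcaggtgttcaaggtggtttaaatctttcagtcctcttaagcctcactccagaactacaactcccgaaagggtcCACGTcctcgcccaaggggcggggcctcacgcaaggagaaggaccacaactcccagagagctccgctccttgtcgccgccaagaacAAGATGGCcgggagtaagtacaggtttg
Atp5md, chr19:47090598-47090897, minus strand, TATA box and ETS letters: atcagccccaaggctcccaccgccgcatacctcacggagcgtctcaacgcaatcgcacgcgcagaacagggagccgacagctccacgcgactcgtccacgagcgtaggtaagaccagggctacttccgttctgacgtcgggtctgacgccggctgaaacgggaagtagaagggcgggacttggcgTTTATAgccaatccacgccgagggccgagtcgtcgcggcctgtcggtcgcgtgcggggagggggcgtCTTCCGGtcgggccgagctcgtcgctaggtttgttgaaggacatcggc

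Summed over all members, epithelial-like cells stood highest and neutrophil-like cells lowest among the 7 classes with at least 50 cells in each library. The members added up to 29690.2 CPM (29644.6 to 29735.8) in 2042 epithelial-like cells of the KO-labelled library and to 29497.6 CPM in 1837 epithelial-like cells of the WT-labelled library. In the library labelled KO this was 2.97% of all UMIs of the class. In neutrophil-like cells the sum was 5283 CPM in 200 cells of the library labelled KO and 5703 CPM in 2240 cells of the library labelled WT. Both neutrophil values lay below every other class in their library. Monocyte/macrophage-like cells reached 18835.6 and 16766.5 CPM, and T-like cells 19487 and 17624 CPM, in the libraries labelled KO and WT. B-like cells had 13471.5 and 13348 CPM and plasma-like cells 11722 and 10632 CPM in the same order of libraries. Mast-like cells took the second place in the library labelled KO, with 25810.7 CPM, and the fourth place in the library labelled WT, with 15615.5 CPM. Epithelial RNA was an estimated 55.0% of the mast-like class in the library labelled KO and 3.97% in the library labelled WT. With it removed the mast-like sums were 19633 and 15011 CPM. The members' share of each cell's UMIs had the same extremes: its median over cells was 2.81% and 2.51% in epithelial-like cells of the libraries labelled KO and WT, against 0.506% and 0.529% in neutrophil-like cells.

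**Figure D1:**
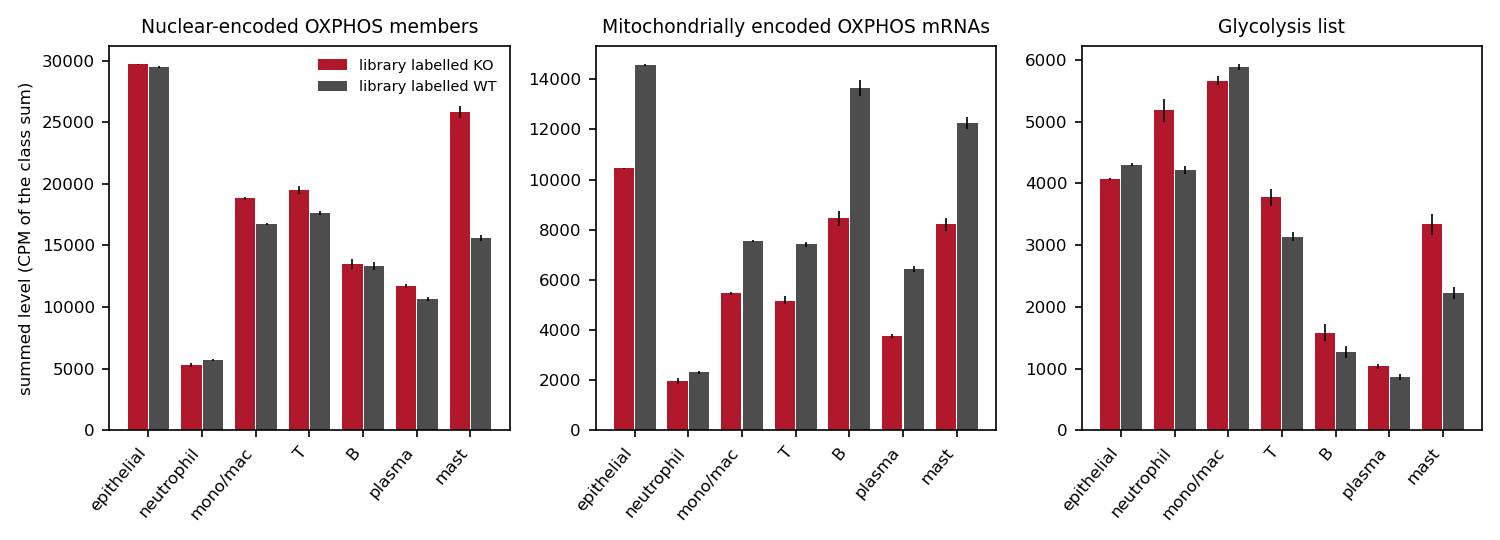
Summed level by class in CPM of the class sum for the members, the mitochondrially encoded OXPHOS mRNAs and the glycolysis list; bars are the library labelled KO (red) and the library labelled WT (grey), and lines are 95% Poisson intervals. The members run between 5283 CPM in neutrophil-like cells and 29690.2 CPM in epithelial-like cells of the KO-labelled library, while the glycolysis list is as high in neutrophil-like as in epithelial-like cells.

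The ratio of the summed level, neutrophil-like over epithelial-like cells, was 0.178 in the library labelled KO and 0.193 in the library labelled WT. The glycolysis list did not share that gap: it summed to 5184 CPM in neutrophil-like and 4077 CPM in epithelial-like cells of the KO-labelled library, and to 4215 and 4299.9 CPM in those of the library labelled WT. Mitochondrially encoded OXPHOS mRNAs summed to 1957 CPM in neutrophil-like and 10449 CPM in epithelial-like cells of the KO-labelled library, and to 2306 and 14574 CPM in those of the library labelled WT. Against the mean of the other 6 compared classes, 79 of the 84 members with at least 50 UMIs (94.0%) were lower in neutrophil-like cells by at least 1.5-fold in both libraries, where 72.7% of all 14099 genes were lower too, and 0 members were higher, against 7.84% of all genes. The median log2 difference of the members was -2.22 in the library labelled KO, where all genes had -1.35, and -2.07 in the library labelled WT, where all genes had -2.02. In the library labelled WT the medians of the members and of all genes thus lay close together. Classes are clusters of the same cells, so these values are descriptions and not tests, although no member was among the genes used for clustering.

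The ratio of the neutrophil-like to the epithelial-like level differed widely between members. Over 84 members the median ratio, neutrophil-like over epithelial-like, was 0.145 in the library labelled KO and 0.150 in the library labelled WT. By complex the medians were 0.139 and 0.138 for complex I, 0.170 and 0.227 for complex II, 0.123 and 0.109 for complex III, 0.196 and 0.177 for complex IV, and 0.131 and 0.167 for complex V, library labelled KO before library labelled WT. Ndufs3 and Atp5g1 are named here after their values were seen, as examples of low ratios. Ndufs3, a core subunit of complex I, was at 1.66 CPM (1 UMI) in neutrophil-like and 82.99 CPM in epithelial-like cells of the KO-labelled library, and at 2.0 CPM (9 UMIs) and 72.8 CPM in those of the library labelled WT. Atp5g1, which encodes the ring subunit c of ATP synthase, was at 33.1 CPM in neutrophil-like and 592.1 CPM in epithelial-like cells of the KO-labelled library, and at 31.5 and 680.4 CPM in those of the library labelled WT, ratios of 0.0560 and 0.0463. Both genes were thus at 0.0560 or less of the epithelial level. Highest in both libraries among members not named as pseudogenes stood Atp5l, subunit g of ATP synthase, with 109 CPM in neutrophil-like and 168.8 CPM in epithelial-like cells of the KO-labelled library, and 155 and 242 CPM in those of the library labelled WT, ratios of 0.648 and 0.642. Ndufa3 followed with ratios of 0.513 and 0.547, Ndufb1 with 0.467 and 0.452, and Cox8a with 0.407 and 0.432. Only the pseudogene Ndufa12-ps had a ratio above 1, in the library labelled WT, at 1.15 (0.710 to 1.78) on 24 neutrophil UMIs. The amount of RNA estimated to come from free epithelial RNA in neutrophil-like cells was 3.42% in the library labelled KO and 3.02% in the library labelled WT, and without it the ratio of the summed levels was 0.149 and 0.168. The ratios of Ndufs3, 0.0200 and 0.0274, lay below these shares. Whether Ndufs3 had any level of its own in neutrophil-like cells was therefore not tested.

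In the other direction, 67 of the 84 members (79.8%) were higher in epithelial-like cells than in the mean of the other classes by at least 1.5-fold in both libraries, where 47.3% of all genes were, and 0 were lower, against 15.1%. Plasma-like cells were lower for 45 members (53.6%), against 70.3% of all genes, and B-like cells for 16 (19.05%), against 31.9%. Both shares lay below the share of all genes. Higher were 1 member in plasma-like and 0 in B-like cells, against 2.77% and 15.6% of all genes. T-like cells had 2 members lower, against 25.5% of all genes, and 2 higher, against 18.7%. Monocyte/macrophage-like cells had 2 lower, against 30.1%, and 1 higher, Ndufb1, against 12.7%. In mast-like cells 5 members were higher, against 9.17%, and 0 lower, against 19.8%. Of the 84 members, 59 (70.2%) peaked in epithelial-like cells within the library labelled KO and 73 (86.9%) within the library labelled WT, against 39.7% of all genes in each library. In mast-like cells 14 (16.7%) and 3 (3.57%) peaked, against 11.4% and 8.02% of all genes. The part of the epithelial RNA of mast-like cells in these numbers was not tested. In neutrophil-like cells 73 (86.9%) and 69 (82.1%) had their lowest level in the libraries labelled KO and WT, against 37.9% and 41.6% of all genes. A gene with equal lowest levels in several classes, mostly at 0 UMIs, was counted in none. With such genes included, 58.2% and 48.0% of all genes and 76 and 69 members were lowest in neutrophil-like cells.

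Within epithelium the level varied between clusters. Cluster 0, led by Muc3, Adh1 and the butyrate transporter gene Slc5a8, had 37516 CPM in the library labelled KO and 39424 CPM in the library labelled WT. Cluster 5, led by Pnliprp2, Pnliprp1 and Ptn, had 24803 and 25491 CPM, and cluster 7, led by the Defa genes and Lyz1 of Paneth cells, had 25064 and 24843 CPM. These clusters held 282, 598 and 118 cells of the library labelled KO and 66, 473 and 217 cells of the library labelled WT. In 5 of the 7 epithelial-like clusters the library labelled KO was lower with an interval below 1, at ratios between 0.876 and 0.973, in 1 the interval spanned 1, and in cluster 23 it was higher, at 1.15. Cluster 23, led by Clca4b and Saa1, held 87 cells of the library labelled KO at a median depth of 28393 UMIs with 1.74% mitochondrial UMIs, against 522 cells of the library labelled WT at 2811.5 UMIs with 10.3%. The class ratio of 1.01 given next is a sum over clusters that differ in direction, and with equal weight per cluster it was 0.955. Neutrophil-like clusters 12, 22 and 13 had 5302.5, 5377 and 3657 CPM in the library labelled KO and 5775, 5526 and 6945 CPM in the library labelled WT, the lowest value resting on 10 cells.

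**Figure D2:**
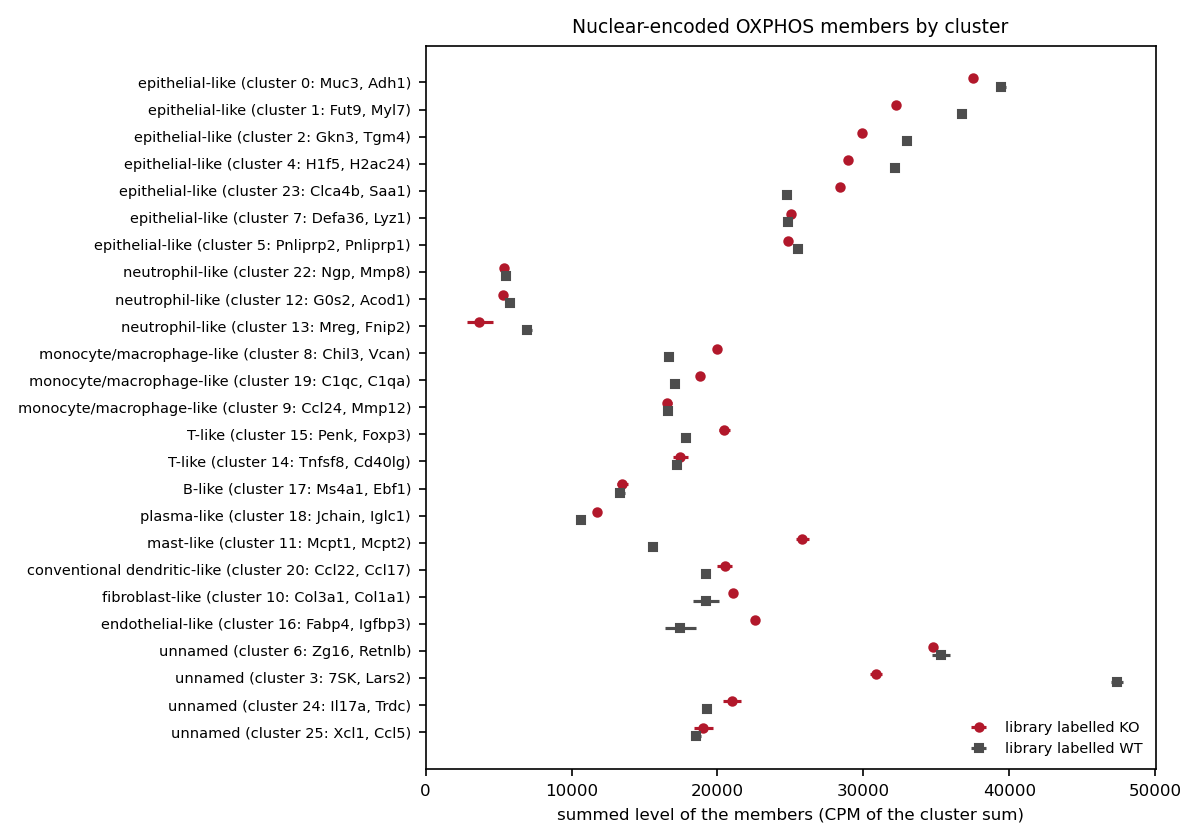
Summed level of the members in CPM of the cluster sum for each cluster with at least 10 cells in both libraries; red circles are the library labelled KO, grey squares the library labelled WT, and lines are 95% Poisson intervals. Epithelial-like clusters spread between 24773 and 39424 CPM and neutrophil-like clusters reach at most 6945 CPM.

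The summed level was nearly equal between the libraries in epithelial-like and B-like cells, lower under the KO label in neutrophil-like cells, and higher in the other 4 classes. The ratio, KO over WT, was 1.01 (1.00 to 1.01) in epithelial-like cells, 0.926 (0.893 to 0.961) in neutrophil-like cells, 1.12 (1.11 to 1.13) in monocyte/macrophage-like cells and 1.11 (1.09 to 1.13) in T-like cells. It was 1.01 (0.972 to 1.05) in B-like cells, 1.10 (1.08 to 1.13) in plasma-like cells and 1.65 (1.61 to 1.69) in mast-like cells. By cluster, the interval lay above 1 in 2 of 3 monocyte/macrophage-like clusters and spanned 1 in the other, with ratios between 0.997 and 1.20. Of the 2 T-like clusters, 1 had an interval above 1 and 1 an interval that spanned it, at ratios of 1.15 and 1.01. With mitochondrial, ribosomal, ribosomal RNA linked, haemoglobin and immunoglobulin genes left out of the total, the neutrophil ratio was 0.986. Epithelial marker genes, 10 in all, summed to 6968 CPM in mast-like cells of the library labelled KO and to 406 CPM in those of the library labelled WT, an estimated 55.0% and 3.97% of epithelial RNA. With that share removed the mast-like sums were 19633 and 15011 CPM. The same markers summed to 653 and 221 CPM in monocyte/macrophage-like cells, 423 and 246 CPM in T-like cells and 434 and 309 CPM in neutrophil-like cells of the libraries labelled KO and WT. Their part in the member ratios was not tested beyond this removal, after which the ratio was 1.11 in monocyte/macrophage-like cells, 1.10 in T-like cells and 0.890 in neutrophil-like cells.

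By complex, the NADH dehydrogenase genes of complex I had the highest ratio of the 4 complexes with many subunits in each of the 4 main classes: 1.05 in epithelial-like, 0.959 in neutrophil-like, 1.21 in monocyte/macrophage-like and 1.18 in T-like cells. Complex V was at 1.01, 0.875, 1.07 and 1.10, complex IV at 0.985, 0.941, 1.10 and 1.08, and complex III at 0.960, 0.938, 1.10 and 1.02 in the same classes. The neutrophil intervals of complexes I, II, III and IV spanned 1. The 13 mitochondrially encoded mRNAs, which specify core subunits of complexes I, III, IV and V, had a summed ratio below 1 in each of these classes: 0.717 in epithelial-like, 0.848 in neutrophil-like, 0.723 in monocyte/macrophage-like and 0.698 in T-like cells. In neutrophil-like cells the nuclear-encoded sum was below 1 as well, and in epithelial-like cells that of complexes III and IV was. The differences were uneven among them. In epithelial-like cells mt-Co1 was at 1249 CPM in the library labelled KO and 3128 CPM in the library labelled WT and mt-Nd6 at 35.7 and 142 CPM, whereas mt-Nd2 was at 911 and 834 CPM. The epithelial-like sums include cluster 23, with a median of 10.3% mitochondrial UMIs in 522 cells of the library labelled WT. Its 87 cells of the library labelled KO had 1.74%. In epithelial-like clusters 1, 2, 4, 5 and 7 this median was lower in the library labelled WT than in the library labelled KO. In cluster 0 it was 2.01% under the KO label and 2.04% under the WT label. The part of cluster 23 in the epithelial ratio of 0.717 was not tested.

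The share of members lower in the library labelled KO by at least 1.5-fold was below the share of all genes in each of the 7 classes. In epithelial-like cells 7 of 88 members with at least 50 UMIs were higher, where 10.5% of all genes were, and 8 were lower, where 16.9% were. With each cell weighted equally, 22 of the 88 were higher, where 17.6% of all genes were. In neutrophil-like cells 9 of 66 were higher (background 12.9%) and 7 lower (28.9%), and with equal weight per cluster 6 were higher (13.7%) and 26 lower (39.7%). In monocyte/macrophage-like cells 15 of 80 were higher (14.8%) and 2 lower (16.9%), and in T-like cells 11 of 77 were higher (11.8%) and 1, Ndufa3, was lower (23.3%). Median log2 ratios of the members were -0.01, -0.09, 0.27 and 0.28 in the 4 classes in this order, beside -0.02, -0.17, -0.03 and -0.12 for all genes. In B-like cells 8 of 62 members were higher (10.7%) and 5 lower (20.1%), and in plasma-like cells 13 of 75 were higher (15.6%) and 2 lower (21.8%). Mast-like cells had 50 of 74 members higher (29.3%) and 0 lower (23.1%), beside the epithelial RNA given above. In neutrophil-like, T-like, B-like and plasma-like cells the share of members higher, at 13.6%, 14.3%, 12.9% and 17.3%, lay near that of all genes. In monocyte/macrophage-like cells it was 18.75%, and at a minimum of 10 UMIs it lay below that of all genes (15 of 85, 18.6%).

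Complex I gave 10 of the 15 higher members in monocyte/macrophage-like cells, where it made up 37 of the 80 members with at least 50 UMIs, and 8 of the 11 in T-like cells, where it made up 36 of 77. Of all genes, 14.8% and 11.8% were higher in these classes. Ndufv2, an iron-sulphur subunit of the NADH-oxidising module, had 102 CPM in the library labelled KO and 45.7 CPM in the library labelled WT in monocyte/macrophage-like cells, a ratio of 2.24 (1.95 to 2.57), and in epithelial-like cells its ratio was 1.56. Ndufa8, an accessory subunit with paired cysteines, was at 238 CPM in the library labelled KO and 144 CPM in the library labelled WT in epithelial-like cells and at 192 and 104 CPM in monocyte/macrophage-like cells. In neutrophil-like cells Ndufa8 was at 34.8 and 36.1 CPM, with an interval of the ratio of 0.580 to 1.52. Ndufc2, a membrane accessory subunit, had ratios of 1.32 in epithelial-like, 1.82 (1.02 to 3.07) in neutrophil-like, 1.84 in monocyte/macrophage-like and 1.73 in T-like cells. The accessory subunits Ndufa3 and Ndufb1 went the other way. Ndufa3 was at 106 CPM in the library labelled KO and 189 CPM in the library labelled WT in epithelial-like cells, at 54.7 and 103 CPM in neutrophil-like cells, at 117 and 162 CPM in monocyte/macrophage-like cells and at 111 and 191 CPM in T-like cells. The ratios of Ndufa3 were 0.564, 0.529, 0.727 and 0.582 in these classes, all with intervals below 1, and those of Ndufb1 were 0.632, 0.653, 0.708 and 0.721. Ndufb4 was at 33.1 CPM in the library labelled KO and 57.7 CPM in the library labelled WT in epithelial-like cells, but reads may be split with its copy Ndufb4c, so its value is uncertain.

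In complex III, Uqcrc2, a core protein of the matrix side, was at 201 CPM in the library labelled KO and 129 CPM in the library labelled WT in epithelial-like cells, and at 135.8 and 70.7 CPM in T-like cells. Its ratios were 1.56 (1.5 to 1.62) and 1.92 (1.49 to 2.48). Uqcrfs1, the Rieske iron-sulphur protein, was at 34.8 CPM (21 UMIs) and 17.3 CPM (78 UMIs) in neutrophil-like cells, a ratio of 2.01 (1.18 to 3.29), and its ratio was 1.46 in epithelial-like cells, 1.49 for monocyte/macrophage-like cells and 1.44 for T-like cells. Uqcrh, the hinge protein, was below 1 in T-like cells, at 637 CPM in the library labelled KO and 776 CPM in the library labelled WT.

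Cox5a, a nuclear-encoded matrix subunit of complex IV, ranked first or second among the higher members in each of the 4 main classes. Cox5a was at 1223 CPM in the library labelled KO and 682 CPM in the library labelled WT in epithelial-like cells, at 151 and 77.0 CPM in neutrophil-like cells, at 820.8 and 394 CPM in monocyte/macrophage-like cells and at 603 and 244 CPM in T-like cells. Its ratios were 1.79 (1.77 to 1.82), 1.96 (1.54 to 2.47), 2.08 (1.98 to 2.18) and 2.47 (2.17 to 2.80), and in B-like, plasma-like and mast-like cells 1.76, 2.03 and 4.16. Ndufa4 was at 504 CPM in the library labelled KO and 262 CPM in the library labelled WT in monocyte/macrophage-like cells, a ratio of 1.92 (1.81 to 2.04), and its ratio in epithelial-like cells was 1.36. Of the 19 complex IV members with at least 50 UMIs in epithelial-like cells, 16 had a ratio below 1, and 11 had an interval below 1. By at least 1.5-fold 2 were lower, where 16.9% of all genes were, and 1 was higher, where 10.5% were. The median log2 ratio was -0.29, beside -0.02 for all genes. The 19 include the pseudogenes Cox5b-ps and Cox7c-ps1. Cox6c was at 556 CPM in the library labelled KO and 734 CPM in the library labelled WT in T-like cells, a ratio of 0.758 (0.680 to 0.844).

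In ATP synthase, Atp5pb, subunit b of the peripheral stalk, was at 489 CPM in the library labelled KO and 305 CPM in the library labelled WT in epithelial-like cells and at 162 and 75.0 CPM in neutrophil-like cells. Ratios of Atp5pb were 1.60 (1.56 to 1.64) in epithelial-like, 2.17 (1.71 to 2.72) in neutrophil-like, 1.73 (1.62 to 1.86) in monocyte/macrophage-like and 2.0 (1.71 to 2.35) in T-like cells. Atp5md, Atp5mpl and Atp5l encode small membrane subunits and were lower in the library labelled KO. Atp5md was at 348 CPM in the library labelled KO and 608 CPM in the library labelled WT in epithelial-like cells, at 87.8 and 198 CPM in neutrophil-like cells, at 244 and 319.9 CPM in monocyte/macrophage-like cells and at 344 and 427 CPM in T-like cells. Its ratios were 0.573, 0.443, 0.764 and 0.806, all with intervals below 1. Atp5mpl had ratios of 0.740, 0.461, 0.762 and 0.774 and Atp5l of 0.698, 0.704, 0.768 and 0.748 in the same classes. Atp5j2, subunit f and another small membrane subunit, is named here after its values were seen because it differed from these, with ratios of 0.990 (0.971 to 1.01), 1.09 (0.821 to 1.43), 1.16 (1.09 to 1.23) and 1.16 (1.02 to 1.31). Atp5e, the epsilon subunit of the central stalk, had 207 CPM in the library labelled KO and 292 CPM in the library labelled WT in neutrophil-like cells, a ratio of 0.710 (0.586 to 0.853).

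**Figure D3:**
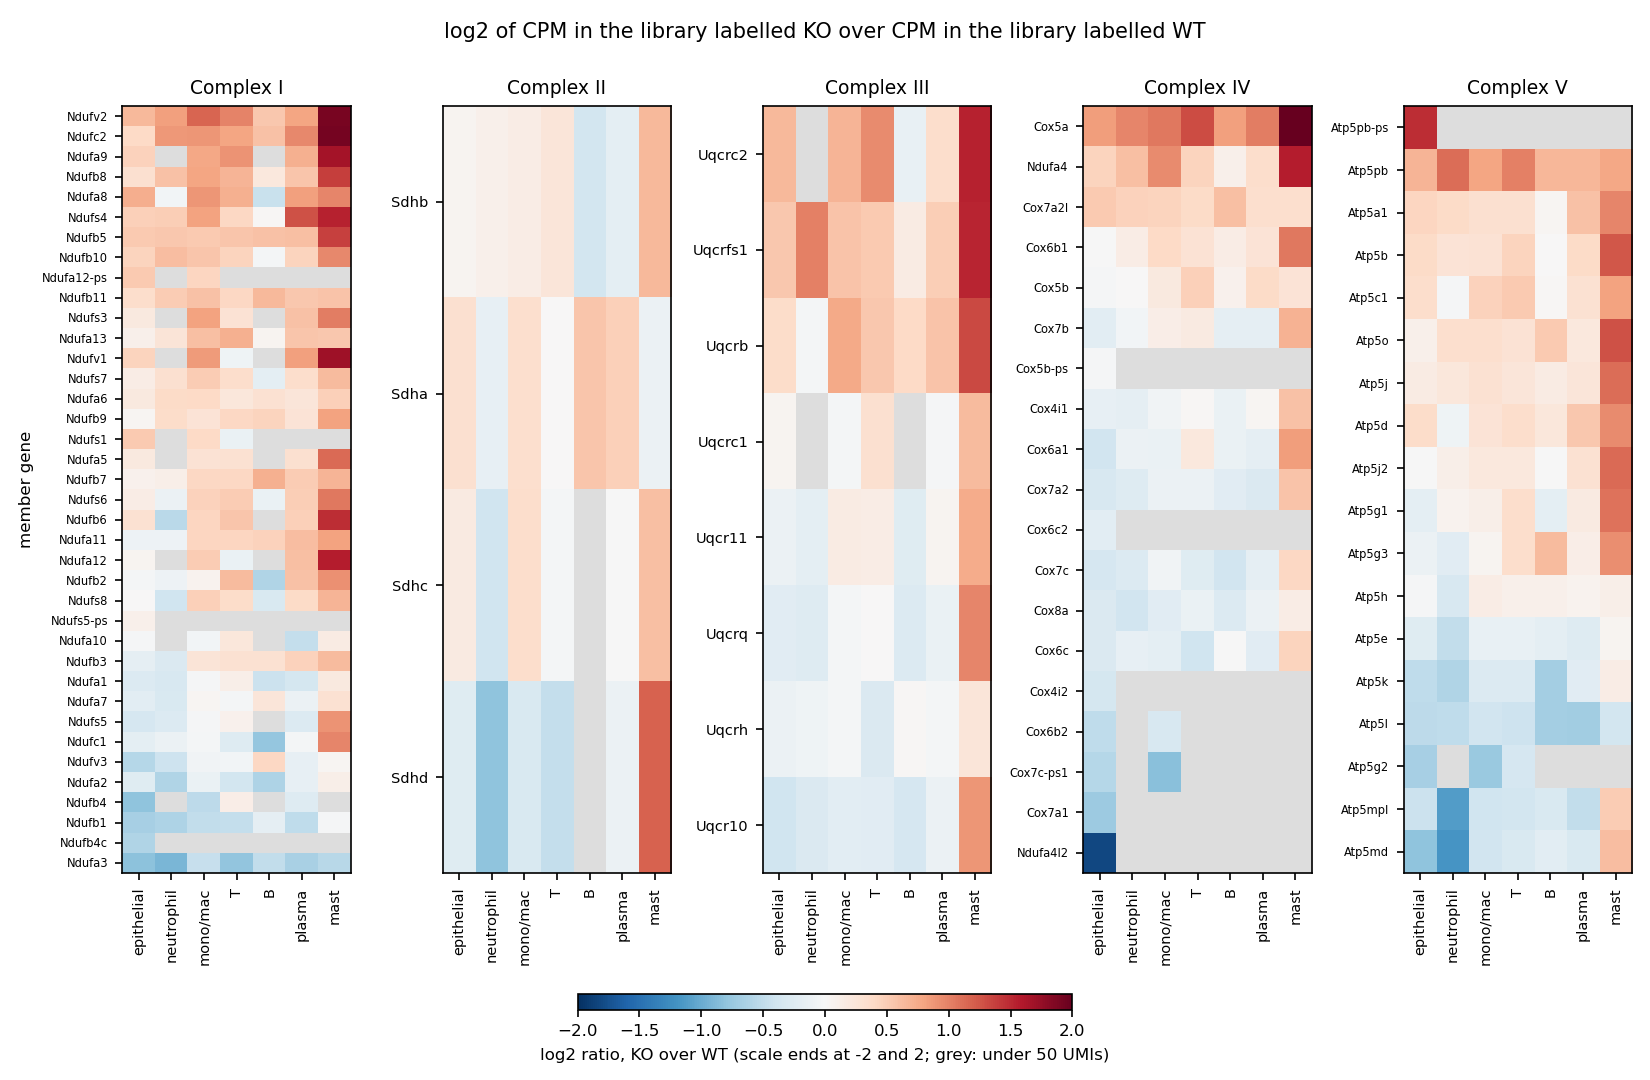
Each row is a member with at least 50 UMIs in at least 1 class, 1 member left out, and each column a class; colour gives the log2 ratio of CPM in the library labelled KO over CPM in the library labelled WT, and grey marks fewer than 50 UMIs in the class. Cox5a, Atp5pb and Ndufv2 are red and Ndufa3 and Ndufb1 blue in the main classes, and mast-like cells are red for most members.

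The 4 genes of succinate dehydrogenase (complex II), which also works in the citric acid cycle, stayed within 1.5-fold between the libraries in epithelial-like cells. Sdha, the flavoprotein, was at 119.9 CPM in the library labelled KO and 96.5 CPM in the library labelled WT in epithelial-like cells, a ratio of 1.24 (1.19 to 1.30), and at 85.9 and 67.9 CPM in monocyte/macrophage-like cells. Sdhb, the iron-sulphur subunit, was at 114 and 109.6 CPM in epithelial-like cells, with an interval of the ratio of 0.999 to 1.09. Sdhc, a membrane anchor, had 132 and 116 CPM in epithelial-like cells and 8.28 and 10.9 CPM in neutrophil-like cells of the libraries labelled KO and WT. Sdhd, the other anchor, was lower, at 114 CPM in the library labelled KO and 134 CPM in the library labelled WT in epithelial-like cells, at 61.7 and 76.1 CPM in monocyte/macrophage-like cells and, on 12 and 156 UMIs, at 19.9 and 34.6 CPM in neutrophil-like cells. The neutrophil ratio of Sdhd was 0.575 with an interval of 0.291 to 1.03.

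Several subunits of complex IV and V are encoded by gene pairs or triplets with different tissue use, and a few of these isoforms marked single classes. Cox6a2, the heart and skeletal muscle form of subunit 6a, was found in plasmacytoid dendritic-like cells: 31 UMIs in all 4 such cells of the library labelled KO (1309 CPM) and 83 UMIs in 14 of 15 cells of the library labelled WT (1096 CPM). In the 2042 and 1837 epithelial-like cells it had 12 and 2 UMIs, each total confined to 2 cells. With each cell thinned to 1000 UMIs, 50% and 60% of the plasmacytoid dendritic-like cells and 0 epithelial-like cells had a Cox6a2 UMI. The widely expressed partner Cox6a1 was at 211 and 290.4 CPM in the plasmacytoid dendritic-like cells.

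Ndufa4l2 and Cox4i2, hypoxia-responsive forms that are known from mural cells of small vessels, were concentrated in the fibroblast-like cluster. Ndufa4l2 had 453 UMIs there in the library labelled KO (252 CPM), in 55.1% of 138 cells, and 8 UMIs in 1 of 12 cells of the library labelled WT. Cox4i2 had 207 UMIs (115 CPM) in 44.9% of the cells of the library labelled KO and 12 UMIs in 2 of 12 cells of the library labelled WT. The cluster mixes cell types, and a split chosen after the values were seen divided the 138 cells by Rgs5, a gene of pericytes. The 88 cells with an Rgs5 UMI, at a median of 9586.5 UMIs per cell, held 451 of the Ndufa4l2 UMIs (410.1 CPM, 373 to 450 CPM) and 204 of the Cox4i2 UMIs (185 CPM). The 50 cells without an Rgs5 UMI, at a median of 11306 UMIs, held 2 and 3 (2.86 and 4.29 CPM). Notch3, another mural gene, had 287 UMIs in the cells with Rgs5 and 0 in those without. Other markers were found in both groups. Pdgfrb, a gene of mural cells and fibroblasts, was at 775 CPM in the cells with Rgs5 (86.4% of cells) and 194 CPM in those without (62% of cells). Dcn, a fibroblast gene, was at 3183 CPM (80.7% of cells) and 3923 CPM (76% of cells). Cox6b2, the testis form of subunit 6b, was in both groups too, with 60.9 CPM in cells with Rgs5 and 100.05 CPM in cells without. The common forms Cox4i1 (824 and 606 CPM) and Cox6b1 (502 and 374 CPM) were present in both groups. Epithelial RNA was an estimated 28.9% of the fibroblast-like cluster in the library labelled KO and 13.1% in the library labelled WT. Its part in the levels of the common forms was not tested. In epithelial-like cells Ndufa4l2 was at 0.473 CPM (26 UMIs) in the library labelled KO and 1.66 CPM (47 UMIs) in the library labelled WT, and 5 cells held 38.5% and 42.6% of these UMIs.

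Cox7a1, the muscle form of subunit 7a, lay mostly in epithelial-like cells: 17.8 CPM (980 UMIs, 27.4% of cells) in the library labelled KO and 29.5 CPM (834 UMIs, 25.1% of cells) in the library labelled WT, a ratio of 0.604 (0.550 to 0.664). In neutrophil-like cells, which give a background share, 0.5% of 200 cells and 0.312% of 2240 cells had a Cox7a1 UMI, at median depths of 2838.5 and 1912 UMIs, against 21475 and 12142 in epithelial-like cells. Thinned to 1000 UMIs the epithelial shares were 2.33% and 2.82% and the neutrophil shares 0.515% and 0.187%. Among the common forms in epithelial-like cells, Cox4i1 was at 1020.1 CPM in the library labelled KO and 1139.9 CPM in the library labelled WT, Cox6a1 at 335 and 437 CPM, Cox6b1 at 679.0 and 682 CPM, Cox7a2 at 659 and 822 CPM, Cox7b at 493 and 569 CPM and Cox8a at 1348 and 1649 CPM. Cox7a2l, a factor of supercomplex assembly, had ratios of 1.44 in epithelial-like cells, 1.37 in neutrophil-like cells, 1.37 in monocyte/macrophage-like cells and 1.31 for T-like cells. Of the 3 genes for ATP synthase subunit c, which encode the same mature protein, Atp5g1 was at 592.1 and 680.4 CPM, Atp5g2 at 22.5 and 35.5 CPM and Atp5g3 at 573 and 618.0 CPM in epithelial-like cells. The ratio of Atp5g2 was 0.633 in epithelial-like and 0.598 (0.430 to 0.820) in monocyte/macrophage-like cells.

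**Figure D4:**
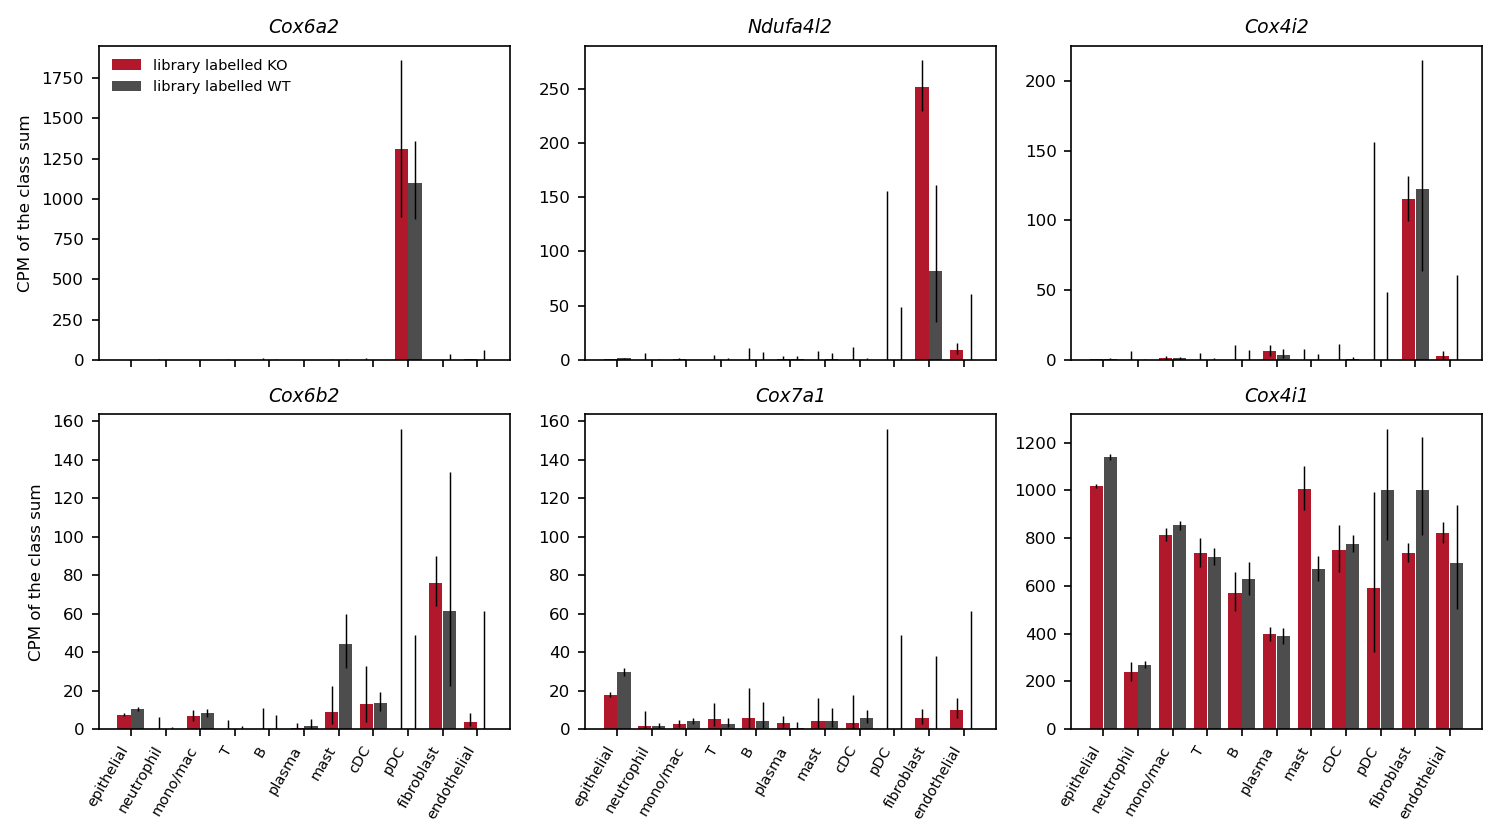
CPM of the class sum for 6 isoform genes over 11 classes; red bars are the library labelled KO, grey bars the library labelled WT, and lines are 95% Poisson intervals, which are wide where a class has few cells. Cox6a2 stands out in plasmacytoid dendritic-like cells (1309 and 1096 CPM) and Ndufa4l2 and Cox4i2 in the fibroblast-like cluster, while Cox4i1 is present in every class.

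The members' ratios were set against transcript length, taken from GENCODE M21 for all 95 members, 83 of them with a coding transcript. For each gene a principal transcript was preferred, then a coding one, and the longest was taken where several ranked equally. It is an annotated length, and the form present in these cells was not measured. The median length of the 83 members was 809 nt, against 2578 nt for other coding genes. In 6 bins of increasing length, the lowest under 500 nt and the highest 2500 nt and over, the median log2 ratio of the members in epithelial-like cells was -0.28 (7 members, 0 of them above 0), -0.11 (30 members), 0.04 (12), 0.15 (14), 0.44 (12) and 0.07 (6). Other coding genes had -0.54, -0.01, 0.16, 0.21, 0.14 and -0.05 in the same bins. Spearman's correlation of length with the log2 ratio over members was 0.43 in epithelial-like (81 members), 0.34 in neutrophil-like (65), 0.29 in monocyte/macrophage-like (77) and 0.27 in T-like cells (76), as a description over genes that share both libraries. Over other coding genes the correlation had the opposite sign in the same classes, at -0.19, -0.24, -0.33 and -0.40, and in epithelial-like cells their median was highest in the fourth bin and lower in the longer ones. With the median of other coding genes in the same length bin subtracted, an alternative chosen after seeing the data, the median member log2 ratio was 0.09 in monocyte/macrophage-like and 0.05 in T-like cells, in place of 0.27 and 0.28 among the members with a coding length. The counts past 1.5-fold became 2 higher and 6 lower of 81 members in epithelial-like and 9 and 4 of 65 in neutrophil-like cells. They became 10 and 4 of 77 in monocyte/macrophage-like and 7 and 7 of 76 in T-like cells. Without the subtraction the same members gave 6 and 6, 9 and 6, 15 and 1, and 11 and 1 in this order. The share of all genes past 1.5-fold after the subtraction was not computed, so the adjusted counts have no background beside them. The cause of these relations was not tested. Single members departed from the members' relation in both directions, and those given here were chosen after their values were seen. Among members with a long annotated transcript and a ratio below 1 in epithelial-like cells were Atp5g1 (4715 nt, 0.870), Atp5md (2733 nt, 0.573), Ndufv3 (1582 nt, 0.673) and Uqcrq (1521 nt, 0.856). The longest of several forms may have been taken here, and a member expressed in a shorter form would be placed in the wrong bin. Among short transcripts with a ratio above 1 were Ndufa4 (610 nt, 1.36), Cox5a (645 nt, 1.79) and Ndufc2 (683 nt, 1.32).

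**Figure D5:**
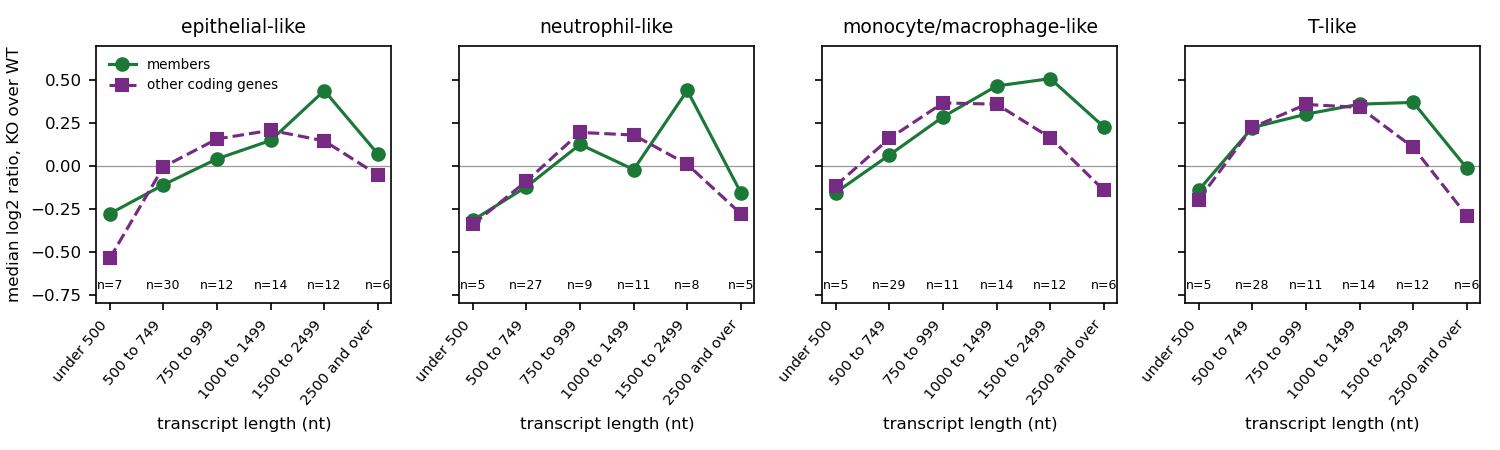
Median log2 ratio, KO over WT, by bin of transcript length in nt for members (green circles, with their number at the foot of each panel) and other coding genes (purple squares) in the 4 main classes. Both groups have their lowest bin under 500 nt in the epithelial-like and the neutrophil-like panel, and most bins of members hold fewer than 20 genes.

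Other mitochondrial gene lists gave context for the members, chosen like them with earlier results of these data known. Their counts stand beside the shares of all genes given above, 10.5%, 12.9%, 14.8% and 11.8% higher and 16.9%, 28.9%, 16.9% and 23.3% lower in the 4 main classes in the order used before. Mitochondrial ribosomal protein genes were higher by at least 1.5-fold for 14 of 79 genes in epithelial-like, 2 of 23 in neutrophil-like, 35 of 78 in monocyte/macrophage-like and 28 of 66 in T-like cells, and lower for 1, 4, 0 and 0, with median log2 ratios of 0.36, 0.07, 0.54 and 0.50. The share higher was 17.7%, 8.70%, 44.9% and 42.4%, below that of all genes in neutrophil-like cells. Genes of the citric acid cycle and pyruvate entry were higher for 2 of 19, 6 of 12, 8 of 19 and 4 of 18 genes and lower for 0, 2, 0 and 1, and the epithelial share equalled that of all genes. Suclg1, a subunit of succinyl-CoA ligase, was at 245 CPM in the library labelled KO and 154 CPM in the library labelled WT in epithelial-like cells and at 72.4 and 34.3 CPM in monocyte/macrophage-like cells. Mdh2, mitochondrial malate dehydrogenase, was at 197 and 61.4 CPM in neutrophil-like cells, a ratio of 3.21 (2.57 to 3.99). OXPHOS assembly factors were higher for 6 of 46, 3 of 11, 16 of 42 and 6 of 22 genes and lower for 4, 3, 3 and 2, shares higher of 13.0%, 27.3%, 38.1% and 27.3%. Cox17, a copper chaperone for complex IV, was at 113 CPM in the library labelled KO and 215 CPM in the library labelled WT in epithelial-like cells, 336 and 504 CPM in neutrophil-like cells, 178 and 409.5 CPM in monocyte/macrophage-like cells and 198 and 295 CPM in T-like cells, while Coa3, a factor of Cox1 translation, was at 231 and 145 CPM in epithelial-like cells.

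Protein import genes were higher for 2 of 21, 4 of 10, 4 of 21 and 6 of 18 genes in the 4 classes and lower for 1, 0, 1 and 0, shares higher of 9.52%, 40%, 19.0% and 33.3%, the first below that of all genes. Hspd1, the matrix chaperonin, was at 627 CPM in the library labelled KO and 384 CPM in the library labelled WT in epithelial-like cells and at 213 and 110.2 CPM in monocyte/macrophage-like cells. Genes of adenine nucleotide and phosphate transport were higher for 0 of 9, 2 of 7, 5 of 9 and 2 of 8 (0%, 28.6%, 55.6% and 25%) and lower for 0, 0, 0 and 1, and Vdac2, an outer membrane channel, was at 335 CPM in the library labelled KO and 190.2 CPM in the library labelled WT in monocyte/macrophage-like cells. Genes that regulate mitochondrial biogenesis were higher for 0 of 17, 1 of 5, 0 of 13 and 0 of 9 and lower for 0, 1, 4 and 2, which in monocyte/macrophage-like cells was 30.8% lower, against 16.9% of all genes. Gabpb1, a subunit of the GABP factor whose ETS letters were searched above, was at 20.5 CPM in the library labelled KO and 29.0 CPM in the library labelled WT in epithelial-like cells and at 31.5 and 60.8 CPM in neutrophil-like cells. Glycolysis genes were higher for 1 of 16, 6 of 15, 0 of 15 and 1 of 15 and lower for 2, 0, 0 and 2. Among these 4 classes the share higher exceeded that of all genes only in neutrophil-like cells (40%, against 12.9%). In B-like, plasma-like and mast-like cells 3 of 8, 2 of 12 and 6 of 13 glycolysis genes were higher and 0 lower. Of all genes, 10.7%, 15.6% and 29.3% were higher and 20.1%, 21.8% and 23.1% lower in those classes. Pgk1 was at 295 CPM in the library labelled KO and 173 CPM in the library labelled WT in neutrophil-like cells, a ratio of 1.70 (1.44 to 2.0), and Hk2 at 169 and 302 CPM in epithelial-like cells, a ratio of 0.561.

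Across the 14 points given by 7 classes and 2 libraries, the complexes followed each other closely, with Pearson's r between the log2 sum of a complex and that of all members of 0.966 for complex II and between 0.989 and 0.998 for the others. These points share libraries, depth and the denominator of CPM, and each complex is part of the whole, so r is a description. For other lists r was 0.984 for mitochondrial ribosomal proteins, 0.969 for protein import, 0.906 for the citric acid cycle, 0.772 for mitochondrially encoded mRNAs and 0.167 for glycolysis. Least like the rest of their complex were Atp5l (r = 0.44) in complex V, Ndufa3 (0.50) in complex I, Cox6b2 (0.56) in complex IV, Sdhd (0.68) in complex II and Uqcrq (0.82) in complex III. Among 368 widely detected genes outside the list, the 10 most like the summed members were Dynll1 (r = 0.974), Pcbp1, Hsp90ab1, Psma7, Ppia, Slc25a5, Chchd2, Ybx1, Ptma and Arpp19 (0.923).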

How the data were processed

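The files held, per library, a sparse matrix of deposited UMI counts (whole numbers per gene and barcode, not normalized), written by Cell Ranger 7.2.0 per the file headers. The genome build is GRCm39 per the submitters' processing notes. The labels' protocols describe a bulk poly(A) RNA library and no single-cell step, so the capture chemistry is not given in the sources used here.

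Barcodes with at least 200 genes and at most 20% mitochondrial UMIs were kept. Scrublet's automatic threshold marked 0.0456% of barcodes in the library labelled KO and 0% in the library labelled WT, which is too few, so the barcodes with the highest doublet scores were removed at 0.8% per 1000 barcodes: 154 (3.51%) and 633 (7.12%). Both libraries were clustered together (scanpy 1.11.5, 2000 variable genes without the members, 30 principal components, 15 neighbours, Leiden resolution 1) in Python 3.11.15. Clusters were named from marker lists, with at least 3 detected markers required, and the naming rule was adjusted after the clusters were seen. Unnamed clusters held 569 cells (13.4%) of the library labelled KO and 917 (11.1%) of the library labelled WT. They include cluster 6, whose best-scoring marker list was epithelial, so the epithelial-like class is not all epithelium. Names and shares depend on this rebuilt annotation.

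Counts were summed per library and class and given as CPM. Intervals are exact 95% intervals, Poisson for CPM and conditional binomial for ratios, and they cover counting error only. With 1 library per genotype no test was made. A gene was called at 1.5-fold in either direction with at least 50 UMIs in the class over both libraries. The calls and intervals were also run on counts simulated from the Poisson model that the intervals assume. Variation between libraries or cells was not simulated, so that run checks the calculation only. Free epithelial RNA was estimated per class and library from 10 epithelial marker genes. Transcript lengths came from GENCODE M21 and promoters from RefSeq, both on GRCm38, and were joined to the files by gene and not by coordinate.

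Named members were all isoform groups and Sdh genes, the 5 members furthest higher and lower in each main class by the interval bound nearest 1, and the member least like its complex. From each pathway list up to 3 genes per class were eligible by the same bound, and other names are marked as chosen after their values were seen. The values of 1 member that this rule names are not reported here, and it is counted in the sums and counts. The members and all lists were chosen with earlier results of these data known. Alternatives changed the weight of cells or clusters, the mitochondrial filter, doublet removal, the denominator, the depth per cell, free RNA, the clustering resolution, the 5 richest cells and the UMI minimum. An adjustment for transcript length was added after seeing the data.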

Additional observations from a re-analysis of the deposited data

Results flagged for a closer look

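The KO over WT ratio of the summed level lay below 1 in neutrophil-like cells and above 1 in the other main classes, which drew attention to 3 pairs of classes. The ratio in epithelial-like cells (1.01) divided by that in neutrophil-like cells (0.926) was 1.09. The ratio in neutrophil-like cells divided by that in monocyte/macrophage-like cells (1.12) was 0.825, and divided by that in T-like cells (1.11) it was 0.838. With 1 library per genotype the difference was not tested in any of these pairs. In neutrophil-like cells the ribosomal RNA linked genes summed to 63573 CPM in the library labelled KO and 5393 CPM in the library labelled WT, and the ratio of the members was 0.986 with these and other abundant classes of RNA left out of the total.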

How the results depend on the processing

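No paired analysis was possible because there was 1 library per genotype. No direction could be tested, and a value is called moved here where it left the interval of the value in the report, or where a count changed by more than 1.5 times: 57 of the alternatives moved a value and 104 did not. The epithelial ratio of 1.01 changed side with the setting. It was 1.16 with each cell weighted equally or thinned to 1000 UMIs, 0.955 with equal weight per cluster, 0.976 under 10% mitochondrial UMIs, 0.989 at Leiden resolution 0.5, and 1.01 (with a change in the next digit) with no mitochondrial filter, no doublet removal or the smaller denominator. The neutrophil ratio of 0.926 was 0.786 with equal weight per cluster, where 1 cluster had 10 cells in the library labelled KO, 0.986 with the smaller denominator and 0.890 without free epithelial RNA. The monocyte/macrophage ratio of 1.12 was 1.14 with equal cells, 1.10 with equal clusters, 1.17 with no doublet removal, 1.16 with the smaller denominator, 1.15 thinned, and 1.11 without free RNA or without the 5 richest cells. The T ratio of 1.11 was 1.08 with equal cells, equal clusters or thinned, 1.14 under 10% mitochondrial UMIs and 1.13 with the smaller denominator.

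Counts of members past 1.5-fold moved as follows, with the share of all genes under the same setting in brackets. Counts after the length adjustment cover only members with a coding length, and no share of all genes was computed for them. They were called moved against the count over all members with at least 50 UMIs. In epithelial-like cells the 7 of 88 higher (10.5%) became 22 of 88 with equal cells (17.6%) and 16 of 78 thinned (17.1%). The length adjustment gave 2 of 81, where 6 were higher without it. The 8 lower (16.9%) became 3 of 88 with equal cells (20.3%), 3 of 78 thinned (15.3%) and 14 of 88 with equal clusters (16.7%). In neutrophil-like cells the 9 of 66 higher (12.9%) became 3 of 39 at a minimum of 200 UMIs (9.05%). The 7 lower (28.9%) became 26 of 66 with equal clusters (39.7%) and 11 of 79 at a minimum of 10 UMIs (33.1%). They became 4 of 66 with the smaller denominator (24.8%). The length adjustment gave 4 of 65, where 6 were lower without it. In monocyte/macrophage-like cells the 15 of 80 higher (14.8%) became 23 of 74 thinned (13.0%). The 2 lower (16.9%) became 4 of 80 with equal clusters (18.4%) and 1 of 77 at 200 UMIs (15.5%). The length adjustment gave 4 of 77, where 1 was lower without it. In T-like cells the 11 of 77 higher (11.8%) became 7 of 76 after the length adjustment, where 11 were higher without it. The 1 lower (23.3%) became 3 of 77 with equal cells (23.9%) and 3 of 80 at 10 UMIs (29.9%). It became 2 of 77 with equal clusters (23.1%), 2 of 76 under 10% mitochondrial UMIs (23.6%) and 4 of 69 thinned (24.8%). The length adjustment gave 7 of 76, where 1 was lower without it. The neutrophil over epithelial ratio of 0.178 in the library labelled KO was 0.188 with equal cells, 0.162 with equal clusters, 0.158 with the smaller denominator and 0.149 without free RNA. In the library labelled WT, 0.193 became 0.235, 0.197, 0.162 and 0.168 under these settings in this order, 0.186 under 10% mitochondrial UMIs, 0.199 with no doublet removal, 0.233 thinned and 0.189 at resolution 0.5. The cause of these shifts was not tested. The share of members higher changed sides of the share of all genes with the setting. In epithelial-like cells it was above it with equal cells (22 of 88, 17.6% of all genes) and thinned (16 of 78, 17.1%). In neutrophil-like cells it was below it under 8 settings, between 3 of 39 (9.05%) at 200 UMIs and 12 of 79 (17.8%) at 10 UMIs, and in monocyte/macrophage-like cells it was below it at 10 UMIs (15 of 85, 18.6%). Depth limits the shallow classes: B-like cells had medians of 2339.5 and 1733 UMIs in the libraries labelled KO and WT, and neutrophil-like cells 2838.5 and 1912, with 15.9 and 11.5 member UMIs per cell, a number set by level as well as depth.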

Other observations

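Cell cycle genes were higher in the library labelled KO by at least 1.5-fold for 5 of 15 genes in epithelial-like cells, 14 of 15 in monocyte/macrophage-like cells and 3 of 14 in T-like cells, and lower for 0, 0 and 3. Of all genes, 10.5%, 14.8% and 11.8% were higher and 16.9%, 16.9% and 23.3% lower in these classes. Mki67, a marker of dividing cells, was at 134 CPM in the library labelled KO and 67.0 CPM in the library labelled WT in epithelial-like cells, and Top2a at 81.7 and 25.3 CPM in monocyte/macrophage-like cells. Mitophagy and hypoxic switch genes were higher for 1 of 9 genes in epithelial-like, 0 of 6 in neutrophil-like, 1 of 9 in monocyte/macrophage-like and 0 of 7 in T-like cells, and lower for 2, 1, 2 and 0. Their shares higher were 11.1%, 0%, 11.1% and 0%, near or below those of all genes. Bnip3, a mitophagy receptor, was at 23.1 and 73.3 CPM in epithelial-like cells. Hif1a was at 354 and 624 CPM in monocyte/macrophage-like cells of the libraries labelled KO and WT.

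The 4 unnamed clusters enter no class. Clusters 3 and 6 scored best on the epithelial marker list (0.390 and 1.07) but were left unnamed. Cluster 3 was shallow with none of its markers leading, and the leading genes of cluster 6 held more markers of another class. The epithelial-like class therefore leaves out cells that scored as epithelial. The T-like class holds only clusters 14 and 15, led by Tnfsf8 and Cd40lg and by Penk and Foxp3. The members summed to 30888 CPM in the library labelled KO and 47347 CPM in the library labelled WT in cluster 3 (led by 7SK and Lars2), and to 34795 and 35329 CPM in cluster 6 (Zg16 and Retnlb). The sums were 20988 and 19251 CPM in cluster 24 (Il17a and Trdc), and 19038 and 18540 CPM in cluster 25 (Xcl1 and Ccl5).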
